A study of Mus musculus with 16 samples.

Results

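Transcripts of 36 genes of sterol and fatty acid synthesis were measured in primary cortical brain endothelial cells, the cells that line the vessels of the brain. The genes were listed by name, with earlier results of these data known. They were 18 enzymes that build cholesterol (the sterol branch) and 6 regulators of the pathway. The other 12 were enzymes that make, lengthen or desaturate fatty acids (the fatty acid branch). All 36 were found among the 39057 entries of the count table and all 36 passed the filter on low counts, as did 12481 genes in total. The cells came from *APOE3*- and *APOE4*-targeted replacement mice, in which the mouse Apoe promoter drives human *APOE3* or *APOE4*, so both groups carry a human allele and neither is wild type. There were 8 cultures per genotype, 4 from males and 4 from females, each from the cortex of 1 animal of 21 to 28 days of age according to the labels. All cultures were untreated, had been exposed to 8 µg/ml puromycin, an antibiotic that endothelial cells withstand better than other brain cells, and were grown to confluence before RNA extraction. The comparison asks whether transcripts of the 2 branches differ with *APOE* genotype.

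Cholesterol is built from acetyl-CoA through mevalonate, farnesyl diphosphate, squalene and lanosterol, while fatty acids are built from the same acetyl-CoA through malonyl-CoA and are then elongated and desaturated. Transcription of both branches is driven by sterol regulatory element-binding proteins (SREBPs), membrane-bound factors that the escort protein Scap carries to the Golgi for cleavage and that the Insig proteins hold back in the endoplasmic reticulum when sterol is plentiful. Apolipoprotein E carries cholesterol and phospholipid between brain cells, and endothelial cells of the blood-brain barrier need such lipids for their membranes.

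The promoters of these genes were searched for short motifs that the choice of members did not use. Windows from 250 bases before to 50 bases after an annotated start were at hand from RefSeq (GRCm38.p6) for 29 of the 36 genes, and each motif was searched on both strands, with a gene counted where any of its windows held it. The CCAAT box, the site of the factor NF-Y that works beside SREBPs, lay in the windows of 14 of 15 sterol branch genes (93.3%), 4 of 5 regulators (80%) and 6 of 9 fatty acid genes (66.7%), against 41.1% of 27025 genes. The GC box GGGCGG, bound by Sp1, lay in 93.3% of the sterol branch, 100% of the regulators and 55.6% of the fatty acid genes, against 38.2% of all genes. The sterol regulatory element TCACNCCAC was found in Hmgcs1 alone of the 29, against 1.44% of all genes. The 27025 genes were not limited to those that passed the filter on low counts, as all 36 members did. The higher shares of the members are thus not shown to be particular to this pathway. A match of letters is a description and not a site shown to be bound. Scd1, Scd2 and Fads1 had no window in the table.

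The windows of 3 genes are printed 5′ to 3′ as examples that differ in their motifs: Hmgcs1, the entry to the mevalonate pathway, which holds the sterol regulatory element and 4 CCAAT boxes; Fasn, fatty acid synthase, with 3 CCAAT boxes, of which 2 overlap in the run CCAATTGG; and Fads2, whose transcript was higher with *APOE4* and whose window holds neither. Capitals mark the sterol regulatory element and the CCAAT box, the latter written ATTGG where it lies on the other strand. The Hmgcs1 window is chr13:119690101-119690400 on the plus strand, the Fasn window chr11:120824498-120824797 on the minus strand and the Fads2 window chr19:10101454-10101753 on the minus strand.
Hmgcs1: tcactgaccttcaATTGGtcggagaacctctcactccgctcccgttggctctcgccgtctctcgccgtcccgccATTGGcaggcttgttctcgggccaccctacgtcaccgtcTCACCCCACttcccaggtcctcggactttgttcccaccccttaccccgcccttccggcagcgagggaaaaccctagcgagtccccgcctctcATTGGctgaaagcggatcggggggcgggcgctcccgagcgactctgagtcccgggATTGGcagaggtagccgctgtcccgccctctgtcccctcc
Fasn: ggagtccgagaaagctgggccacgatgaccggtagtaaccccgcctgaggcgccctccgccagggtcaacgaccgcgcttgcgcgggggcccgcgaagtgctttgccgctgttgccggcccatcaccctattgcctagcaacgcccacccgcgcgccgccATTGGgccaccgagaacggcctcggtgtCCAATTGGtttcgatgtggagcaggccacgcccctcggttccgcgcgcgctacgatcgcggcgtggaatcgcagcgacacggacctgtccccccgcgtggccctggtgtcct
Fads2: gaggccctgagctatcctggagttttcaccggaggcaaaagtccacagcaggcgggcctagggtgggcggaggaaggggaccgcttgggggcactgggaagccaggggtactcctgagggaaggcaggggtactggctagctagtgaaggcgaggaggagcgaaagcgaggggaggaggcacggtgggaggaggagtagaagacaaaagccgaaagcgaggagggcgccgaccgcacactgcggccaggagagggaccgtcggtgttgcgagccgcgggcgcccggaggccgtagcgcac

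Total counts per library were 14276942 to 16603076 in *APOE3* and 12717847 to 18624417 in *APOE4* cultures, with no difference detected (two-sided exact permutation test, p = 0.758). Levels are given as CPM, counts scaled to a common library size after TMM, and the spread between cultures beyond counting error was 0.0928 as a biological coefficient of variation. Human APOE was read in every library, at 1172 ± 174 CPM in *APOE3* and 796 ± 134 CPM in *APOE4* (SD, n = 8 each; log2 fold change -0.56 ± 0.0986, adjusted p = 0.00542). Both genotypes carry human APOE, and their ranges overlapped (1003 to 1425 and 609 to 1013 CPM). Its level therefore cannot check the genotype label of a library. Log2 fold changes are given ± SE throughout, and p-values of single genes are adjusted over all genes tested. Mouse Apoe, whose gene is replaced, stood at 15.6 ± 1.37 and 12.7 ± 1.94 CPM. All 17 brain endothelial markers were present, summing to 22203 to 23787 CPM in *APOE3* and 22499 to 24909 CPM in *APOE4*, and 1 of them (Emcn) was called higher. Pericyte and smooth muscle markers summed to 192 to 360 and 226 to 345 CPM, fibroblast markers to 13.3 to 65.3 and 10.4 to 85.2 CPM, astrocyte markers to 32.1 to 41.8 and 33.9 to 43.6 CPM, microglial markers to 6.05 to 7.66 and 5.32 to 7.94 CPM, and neuronal markers to 10.9 to 15.2 and 13.7 to 18.7 CPM, with no gene of these lists called. The median log2 fold changes of these lists, in the same order, were 0.30, 0.30, 0.39, -0.02 and 0.21. They rest on only 8, 4, 2, 1 and 3 tested markers. Oligodendrocyte markers summed to 24.5 to 32.2 and 31.6 to 38.1 CPM. In bulk cultures, fewer cells of a type and less RNA per cell cannot be told apart.

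Across the table, 1597 of 12481 genes (12.8%) were called differentially expressed, meaning an adjusted p under 0.05 in edgeR's quasi-likelihood test. Of these, 837 (6.71%) were higher and 760 (6.09%) lower with *APOE4*. Among the 36 sterol and fatty acid genes, 5 were higher and 0 lower, and the 5 all belong to the fatty acid branch: Acaca, Scd1, Scd2, Fads1 and Fads2. None of the 18 sterol enzymes and none of the 6 regulators was called. The fold changes of the 36 lay mostly above 0 (29 of 36, median log2 fold change 0.07), where 6232 of the 12481 genes tested lay above 0 with a median of -0.00022.

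**Figure D1:**
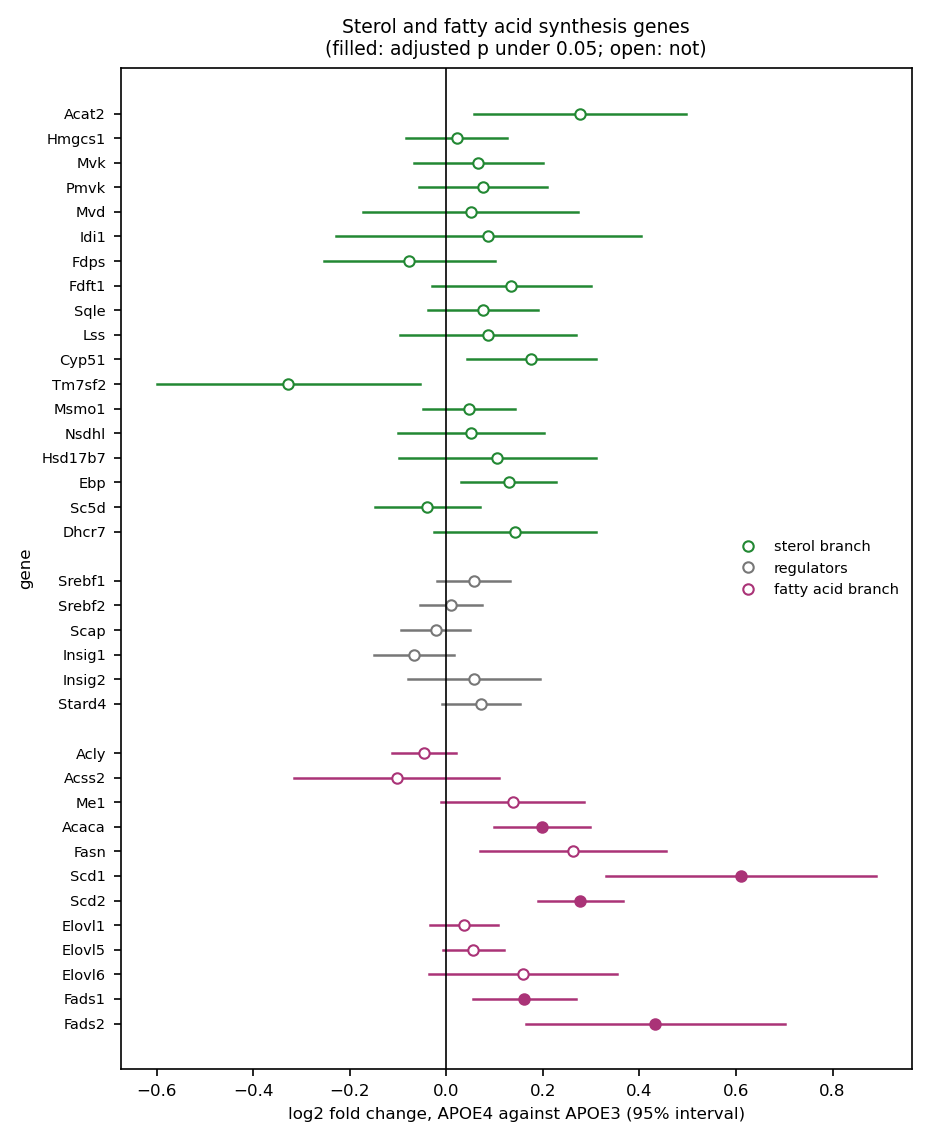
Log2 fold change of each of the 36 genes, *APOE4* against *APOE3* (x axis, points with 95% intervals), by branch (y axis, genes). Filled points have an adjusted p under 0.05; they are Acaca, Scd1, Scd2, Fads1 and Fads2, from 0.16 to 0.61, and all sterol branch and regulator points are open.

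The levels of the 36 genes, set side by side per kilobase of annotated exon, ranged from 0.673 CPM per kb for Acss2 to 45.6 CPM per kb for Elovl1. The top of the order was taken by fatty acid genes and a regulator: Elovl1, Elovl5 (35.1 CPM per kb), Acly (32.8 CPM per kb), Srebf2 (25.8 CPM per kb) and Scd2 (25.7 CPM per kb). The highest sterol enzymes were Ebp with 12.9 and Mvk with 12.8 CPM per kb, and Hmgcs1 stood at 9.59 CPM per kb. Tm7sf2, Lss and Idi1 were the lowest sterol enzymes, each below 1 CPM per kb. The exon length is the union over all annotated transcripts, so genes with long alternative exons are set lower than their main transcript would be.

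The calls lay in the fatty acid branch, and most of them with the desaturases, the enzymes that place double bonds in fatty acids. All 4 desaturases among the 36 genes (Scd1, Scd2, Fads1 and Fads2) were called higher, with a median log2 fold change of 0.36, against 1 of the other 8 fatty acid genes. Of all genes tested, 6.71% were called higher. The desaturases were not listed apart when the 36 genes were chosen, so this split describes the calls and does not test them. The 4 desaturases sit as 2 pairs on chromosome 19, which holds 5 of the 36 members, the other being the sterol reductase Tm7sf2. Fads3, a related desaturase next to Fads2 that is not among the 36, was tested and not called (log2 fold change 0.25, adjusted p = 0.263).

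Scd2 (ENSMUSG00000025203.5, chromosome 19 from 44293674 to 44306864), the stearoyl-CoA desaturase that prevails in brain and puts the first double bond into saturated fatty acids, had 106, 129 and 134 CPM as the lowest, median and highest *APOE3* libraries. The *APOE4* libraries had 140, 154 and 164 CPM. Every *APOE4* library thus lay above every *APOE3* library, which held for no other member. Of the 12481 genes tested, 78 (0.625%) had libraries that did not overlap between the genotypes, whether higher or lower with *APOE4*. The mean rose from 127 ± 8.94 to 154 ± 6.94 CPM (SD, n = 8 each), a log2 fold change of 0.28 ± 0.0424, with an adjusted p of 0.00423. One *APOE3* library, replicate 26, lay apart below the others, and without it the log2 fold change was 0.24 (adjusted p = 0.00338).

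Scd1 (ENSMUSG00000037071.2, chromosome 19 from 44394455 to 44407879), the stearoyl-CoA desaturase best known from liver and fat, was read at a much lower level. Its lowest, median and highest values were 4.29, 5.54 and 7.61 CPM in *APOE3* and 6.52, 8.25 and 12.6 CPM in *APOE4* libraries. The groups overlapped, but 6 of 8 *APOE4* libraries lay above the highest *APOE3* library and all 8 above the *APOE3* median. Scd1 had the largest fold change of the 36 members, with means of 5.79 ± 1.08 and 8.86 ± 1.96 CPM and a log2 fold change of 0.61 ± 0.134, with an adjusted p of 0.00904. Counts behind it were 64 to 212 per library. Per kilobase, Scd2 exceeded Scd1 by a ratio of 20.2 ± 4.07 in *APOE3* (14.6 to 26.6) and 16.1 ± 2.88 in *APOE4* libraries (11.7 to 21.1), ranges that overlapped.

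Fads2 (ENSMUSG00000024665.7, chromosome 19 from 10062765 to 10101746) encodes the delta-6 desaturase, the first step in making long polyunsaturated fatty acids. Its *APOE3* libraries ran from 16.5 CPM through a median of 19.6 to 26.7 CPM, and its *APOE4* libraries from 18.9 through 25.3 to 37.0 CPM. The ranges overlapped: 2 *APOE4* libraries, replicates 35 and 41, lay above the highest *APOE3* library, and 7 of 8 lay above the *APOE3* median. The log2 fold change was 0.43 ± 0.129, with an adjusted p of 0.0328.

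Fads1 (ENSMUSG00000010663.4, chromosome 19 from 10182888 to 10196877), the delta-5 desaturase that acts next to Fads2 in that series, ran from 64.9 through 72.4 to 85.0 CPM in *APOE3* and from 74.9 through 81.4 to 92.5 CPM in *APOE4* libraries. All 8 *APOE4* libraries exceeded the *APOE3* median and 2 exceeded the highest *APOE3* library. The log2 fold change of 0.16 ± 0.0514 had an adjusted p of 0.0437, close to the threshold. When 1 library at a time was omitted, Fads1 was called in 3 of 16 fits and Fads2 in 10 of 16, while Scd1, Scd2 and Acaca were called in all 16.

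Acaca (ENSMUSG00000020532.18, chromosome 11 from 84129672 to 84401651), acetyl-CoA carboxylase, makes the malonyl-CoA from which fatty acids are built. Its libraries ran from 22.2 through 24.4 to 26.7 CPM in *APOE3* and from 26.6 through 27.6 to 31.0 CPM in *APOE4*, so that only the lowest *APOE4* library lay within the *APOE3* range. The means of 24.5 ± 1.36 and 28.1 ± 1.63 CPM gave a log2 fold change of 0.20 ± 0.0473, with an adjusted p of 0.0127. Of the 50-base stretches of its transcripts, 30.4% occur also in another annotated gene (among them the predicted gene Gm5182), so a part of its reads may be assigned elsewhere.

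Fasn (ENSMUSG00000025153.9, chromosome 11 from 120805846 to 120824547), the synthase that joins malonyl units into palmitate, did not pass the threshold. It ran from 51.6 through 67.6 to 81.5 CPM in *APOE3* and from 64.0 through 83.5 to 98.3 CPM in *APOE4* libraries, and 4 of 8 *APOE4* libraries lay above the highest *APOE3* library. Its log2 fold change of 0.26 ± 0.0924 (95% interval 0.07 to 0.46) was close in size to that of Scd2, but with an SD of 9.44 and 12.5 CPM its adjusted p was 0.0645. DESeq2's Wald test (0.0407) and the fit corrected for GC content and length (0.0347) placed it under the threshold.

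**Figure D2:**
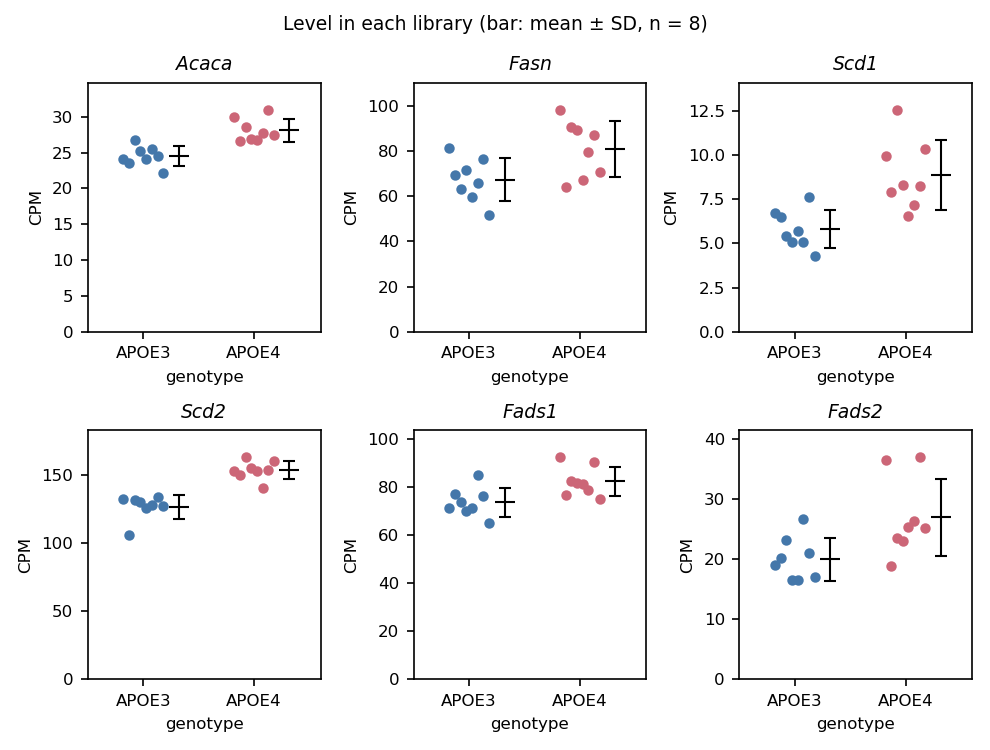
CPM (y axis, from 0) in each of the 8 *APOE3* and 8 *APOE4* libraries (x axis) for Acaca, Fasn and the 4 desaturases; points are libraries and bars the mean ± SD. Only for Scd2 do the groups not overlap, at 106 to 134 against 140 to 164 CPM.

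The enzymes that supply acetyl-CoA and NADPH were not called. Acly, which cleaves citrate to acetyl-CoA, had a log2 fold change of -0.05, Acss2, which activates acetate, of -0.10, and Me1, the malic enzyme that yields NADPH, of 0.14. Nor were the elongases, which add carbons to finished fatty acids: Elovl1 stood at 0.04, Elovl5 at 0.06 and Elovl6 at 0.16 on the log2 scale, with adjusted p-values of 0.518, 0.226 and 0.273. For Elovl1 the 95% interval ran from -0.03 to 0.11 and for Elovl5 from -0.01 to 0.12, so changes of the size seen in Scd2 lay outside both.

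Summed over the 12 fatty acid genes, the level was 779 ± 23.2 CPM in *APOE3* libraries (743 to 805). In *APOE4* libraries it was 847 ± 33.3 CPM (813 to 900), and the groups did not overlap. This sum includes the genes called higher in these same libraries. Those genes alone summed to 251 ± 13.4 CPM in *APOE3* and 300 ± 16.25 CPM in *APOE4* libraries, a large part of the difference. The separation is thus not shown for the other fatty acid genes. The sum of the 18 sterol enzymes was 333 ± 15.5 CPM (317 to 363) and 350 ± 17.1 CPM (330 to 378), and that of the 6 regulators 542 ± 11.4 and 547 ± 14.9 CPM, both with overlapping groups. No test was made on these sums, since they weigh the abundant genes most.

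**Figure D3:**
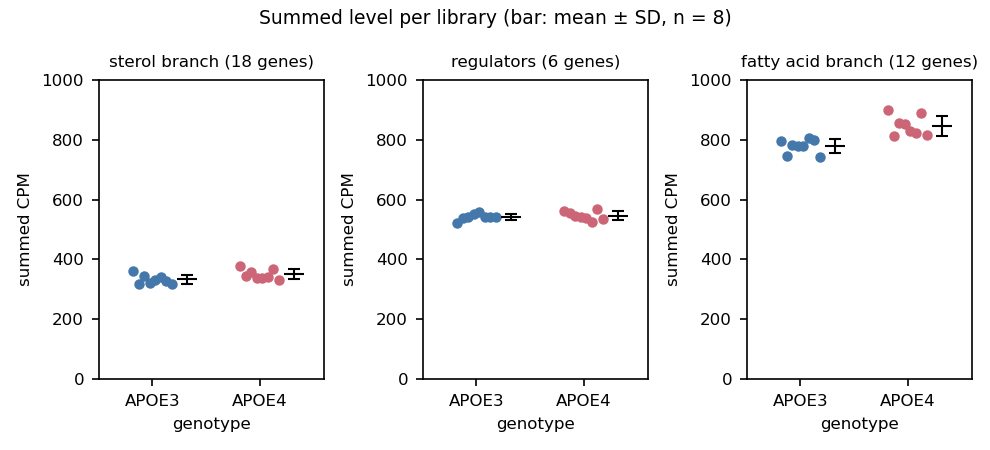
Summed CPM (y axis, from 0) of the sterol branch, the regulators and the fatty acid branch in each library (points) of each genotype (x axis), with mean ± SD. The fatty acid sums run from 743 to 805 in *APOE3* and from 813 to 900 in *APOE4* libraries. They include the genes called higher, which make a large part of the difference. The other sums overlap between genotypes.

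In the sterol branch, 0 of 18 enzymes passed the threshold in edgeR, DESeq2's Wald test or limma's voom, and 4 of 18 had an unadjusted p under 0.05 in each of the 3. Of the 18, 15 lay above 0, with a median log2 fold change of 0.08 and a range from -0.33 to 0.28. Across all genes tested, 3617 of 12481 had an unadjusted p under 0.05 in edgeR. Counts per gene and library were 29 to 871 in the sterol branch and 64 to 3175 in the fatty acid branch. The 95% intervals of the 18 genes reached from -0.60 to 0.50.

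The early, mevalonate steps were close to level. Hmgcs1, the synthase that condenses acetyl-CoA to HMG-CoA, ran from 40.6 through 43.5 to 49.1 CPM in *APOE3* and from 38.5 through 44.3 to 51.6 CPM in *APOE4* libraries, with a log2 fold change of 0.02 (95% interval -0.08 to 0.13). The groups coincided almost fully, although replicate 25 lay apart above the other *APOE3* libraries. The kinases Mvk (0.07) and Pmvk (0.08), the decarboxylase Mvd (0.05), the isomerase Idi1 (0.09) and the farnesyl diphosphate synthase Fdps (-0.08) had log2 fold changes of like size. Acat2, the cytosolic thiolase ahead of Hmgcs1, had the highest value of these steps at 0.28 ± 0.105 (adjusted p = 0.0859), but 39.1% of its 50-base stretches occur also in Acat3 or Tcp1, so its reads are uncertain. For Fdps, Me1 and Idi1 the shared part was 26.2%, 22.9% and 17.7%.

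The steps that commit carbon to sterol showed small values with intervals that include 0. Fdft1, which joins farnesyl units to squalene, had a log2 fold change of 0.13 (95% interval -0.03 to 0.30), Sqle, the squalene epoxidase that limits the flow of the pathway, of 0.08 (95% interval -0.04 to 0.19), and Lss, which closes the ring to lanosterol, of 0.09. Sqle ran from 29.1 through 32.9 to 35.2 CPM in *APOE3* and from 30.8 through 34.0 to 39.3 CPM in *APOE4* libraries, and the *APOE3* median was exceeded by 4 of 8 *APOE4* libraries.

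Of the enzymes that turn lanosterol into cholesterol, those nearest to the threshold had values of both signs. Cyp51, the lanosterol demethylase, ran from 15.98 through 18.0 to 20.1 CPM in *APOE3* and from 18.1 through 20.0 to 23.2 CPM in *APOE4* libraries (log2 fold change 0.18 ± 0.0641, adjusted p = 0.073). Ebp, a sterol isomerase, had 28.4 ± 1.60 and 31.1 ± 1.95 CPM (log2 fold change 0.13, adjusted p = 0.0775). Tm7sf2, a sterol reductase, had 4.29 ± 0.749 and 3.41 ± 0.636 CPM, and the *APOE3* median was exceeded by 1 of 8 *APOE4* libraries (log2 fold change -0.33 ± 0.131, adjusted p = 0.101). The others lay between -0.04 for Sc5d and 0.14 for Dhcr7, the last reductase before cholesterol, with Msmo1 and Nsdhl at 0.05 and Hsd17b7 at 0.11.

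The regulators lay close to 0. In the main edgeR fit the 6 had log2 fold changes from -0.07 to 0.07, 95% intervals that together spanned -0.15 to 0.19, no unadjusted p under 0.05 and a lowest adjusted p of 0.234. In the edgeR fit corrected for GC content and length, 2 of the 6 had an unadjusted p under 0.05. The lowest adjusted p there was 0.0693, for Srebf1, and 0 were called. Srebf2, the SREBP gene that favours the sterol branch, ran from 177 through 183 to 194 CPM in *APOE3* and from 174 through 186 to 195 CPM in *APOE4* libraries (log2 fold change 0.01 ± 0.0310). Srebf1, which favours the fatty acid branch, ran from 89.3 through 93.0 to 101 CPM in *APOE3* and from 88.9 through 99.0 to 103 CPM in *APOE4* libraries (log2 fold change 0.06 ± 0.0362). The groups overlapped almost entirely in both. Scap had a log2 fold change of -0.02, Insig1 of -0.07, Insig2 of 0.06 and Stard4, a sterol carrier, of 0.07. These are transcript levels, and the cleavage that activates SREBPs was not measured.

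A cell cycle score, the mean log2 CPM of 40 proliferation genes, had a higher median with *APOE4*. It was 5.12 to 6.14 in *APOE3* (median 5.59) and 5.85 to 6.64 in *APOE4* libraries (median 6.15). These ranges overlapped, and the difference was not tested. With this score as a covariate edgeR called 0 of 12481 genes (896 had an unadjusted p under 0.05). In that fit the fatty acid genes parted: Scd1 (log2 fold change 0.56 ± 0.190) and Scd2 (0.26 ± 0.0585) were nearly as large as without it and were the only members with an unadjusted p under 0.05, at adjusted p-values of 0.567 and 0.380. Acaca stood at 0.08, Fasn at 0.01, Fads1 at -0.02 and Fads2 at -0.06. Because the score ran higher with *APOE4*, the genotype effect and the score cannot be told apart in these libraries. This holds for Scd1 and Scd2 as for the latter 4. Oligodendrocyte markers also moved: 1 of 9, Cnp, was called higher with *APOE4* (28.1 and 33.0 CPM, adjusted p = 0.0143) and made most of their sum, whereas 6 of 9, among them Mog, Mag, Olig1, Olig2, Sox10 and Mobp, had at most 3 counts in every library.

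**Figure D4:**
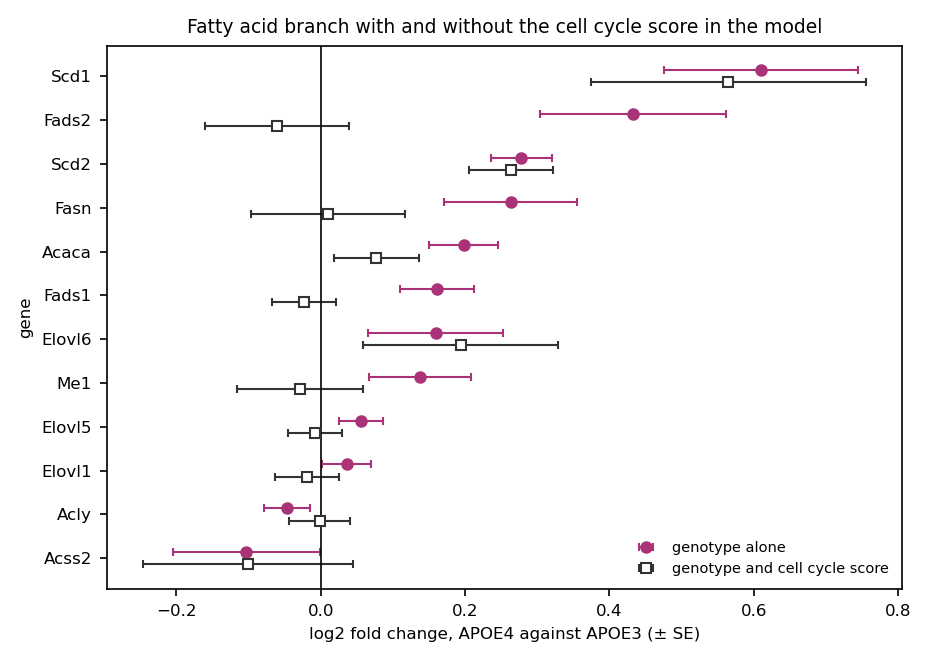
Log2 fold change ± SE (x axis) of the 12 fatty acid genes (y axis) from the fit with genotype alone (filled circles) and with the cell cycle score added (open squares). Scd1 and Scd2 stay at 0.56 and 0.26 while Fads2 goes from 0.43 to -0.06 and Fasn from 0.26 to 0.01.

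The 5 called genes lay above 0 in both sexes, which is likely from the outset since they were called higher in these same libraries. Within males, with 4 libraries per genotype, the log2 fold changes were 0.71 for Scd1, 0.32 for Scd2, 0.36 for Fads2, 0.19 for Fads1 and 0.17 for Acaca, and within females 0.50, 0.24, 0.50, 0.13 and 0.23. No gene of the table was called by edgeR within males (0%), within females (0%) or for the difference between them (0%), where 1775, 2428 and 345 genes had an unadjusted p under 0.05. Of the 36 members, 4 had an unadjusted p under 0.05 within males, 5 within females and 0 for the difference. Between females and males themselves 9 genes of the table were called (0.0721%), and 0 of the 36.

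Libraries of one genotype also differed among themselves, and some members did so together. Pearson's r was taken over the 16 libraries from deviations of log2 CPM from the genotype mean, as a description without a test, since all points share their depth and scaling. The closest pairs were Mvk with Mvd (0.84), Fads1 with Fads2 (0.82), Tm7sf2 with Insig1 (0.80), Sqle with Acaca (0.79) and Fdft1 with Sqle (0.75). Fdft1, Acaca and Fads2 were likewise close (0.72 to 0.75), so several of the closest pairs crossed the 2 branches. Of the desaturases, only Fads1 and Fads2 were close. Scd2 had r of 0.24 with Scd1, -0.01 with Fads2 and -0.10 with Fads1. Scd1 had r of 0.23 with Fads1 and 0.09 with Fads2. The median r was 0.19 over the 153 pairs within the sterol branch, 0.17 over the 66 within the fatty acid branch and 0.24 over the 216 between them, against 0.00 for pairs with all other genes. Srebf1 and Insig2 had the lowest r of all pairs, at -0.78.

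**Figure D5:**
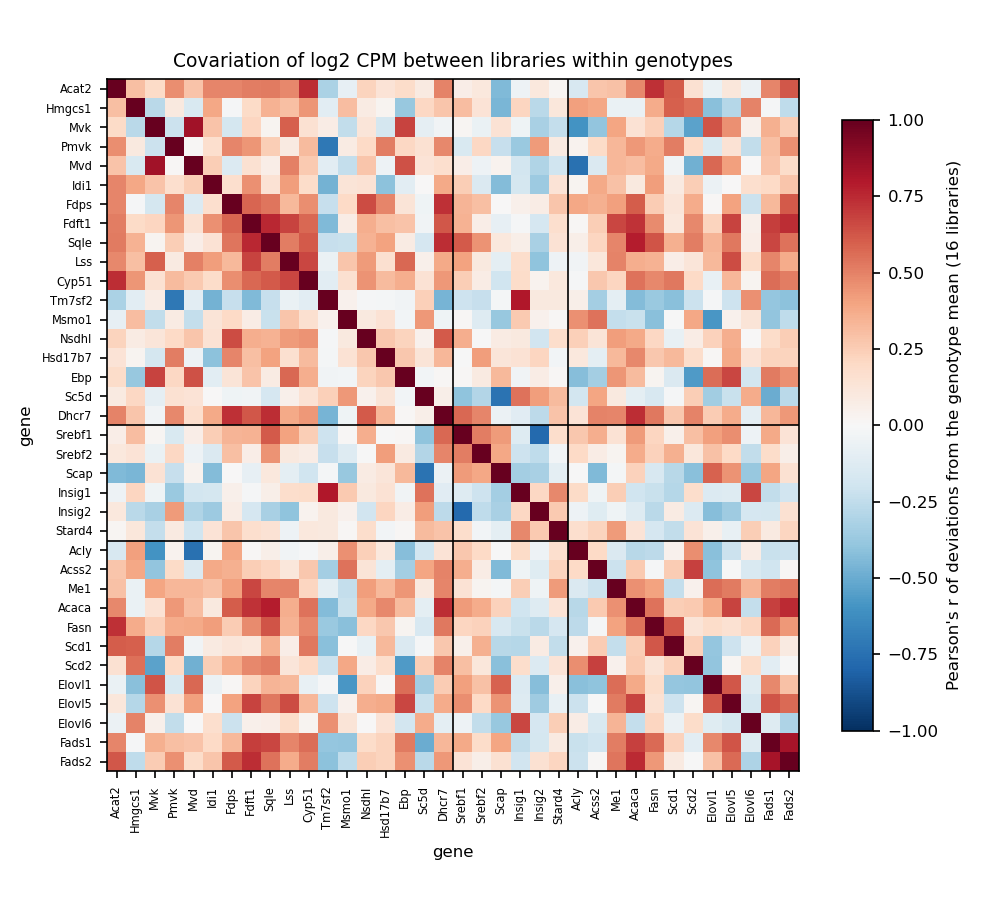
Pearson's r (colour, from -1 to 1) of deviations of log2 CPM from the genotype mean over 16 libraries, for each pair of the 36 genes (both axes), with lines between sterol branch, regulators and fatty acid branch. A block of high values joins Fdft1, Sqle, Acaca, Fads1 and Fads2, with the pair Fads1 and Fads2 at 0.82.

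Genes next to the pathway were examined by list, beside the 12.8% called across the table. Of 16 tested factors that process SREBPs or sense lipids, 2 were called, both lower: Nr1h2, the sterol-sensing receptor LXR beta (111 ± 6.73 and 99.2 ± 4.36 CPM, log2 fold change -0.17, adjusted p = 0.0101), and the deacetylase Sirt1 (-0.22, adjusted p = 0.0487). Of 14 tested genes that lead from farnesyl diphosphate to other isoprenoids, 0 were called and 1 had an unadjusted p under 0.05. Of 16 genes of sterol ester formation and transport, Soat1, which esterifies cholesterol, was higher (22.9 ± 1.86 and 26.9 ± 3.38 CPM, log2 fold change 0.23, adjusted p = 0.0397) and Nceh1, which cleaves the esters, was lower (48.8 ± 3.32 and 43.3 ± 3.17 CPM, log2 fold change -0.17, adjusted p = 0.0329). When 1 library at a time was omitted, Soat1, Sirt1 and Nceh1 were called in 6, 3 and 9 of 16 fits. With the cell cycle score in the model their log2 fold changes were -0.01, -0.01 and -0.05, and that of Nr1h2, called in all 16 fits, was -0.09.

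Of 23 further genes of fatty acid synthesis, elongation and activation, 1 was called: Hacd4, a dehydratase of the elongation cycle, at 37.1 ± 6.85 and 51.2 ± 7.43 CPM (log2 fold change 0.47 ± 0.103, adjusted p = 0.00900), and every *APOE4* library exceeded the median of *APOE3*. Of 27 genes of phospholipid and triglyceride synthesis, 3 were called. Selenoi, which makes phosphatidylethanolamine, was higher (27.5 ± 1.63 and 31.7 ± 1.71 CPM, log2 fold change 0.20, adjusted p = 0.0101). Lpin1, the phosphatase that forms diacylglycerol, was lower (47.1 ± 7.22 and 37.3 ± 6.05 CPM, log2 fold change -0.34, adjusted p = 0.0270), as was Chka, the choline kinase at the start of phosphatidylcholine synthesis (64.4 ± 4.45 and 57.6 ± 3.43 CPM, log2 fold change -0.16, adjusted p = 0.0265). The median log2 fold change was 0.10 for the first of these lists and -0.04 for the second. When 1 library at a time was omitted, Lpin1 was called in 10 and Chka in 11 of 16 fits, and Hacd4 and Selenoi in all 16. With the cell cycle score in the model the log2 fold changes were 0.13 for Hacd4, 0.18 for Selenoi, -0.07 for Lpin1 and -0.05 for Chka, and none of the 4 was called.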

How the data were processed

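RNA sequencing libraries were made by the study from 100 ng of total RNA by poly-A selection with 17 cycles of PCR and read to 50 nt. The authors deposited raw counts of reads per gene, made with STAR and featureCounts on mm10 with hg38 per the labels (versions and strand setting not given in the sources used here). Reads carry no molecular identifiers, so PCR copies of a molecule were not merged. Standard errors and p-values of the fits include the spread between cultures of a genotype. Groups were taken from the genotype label. The 36 genes and the other lists were chosen with earlier results of these data known. Entries were matched to symbols and positions with GENCODE mouse release M21 (GRCm38), which holds 38872 of the 39056 mouse identifiers.

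Genes were filtered with edgeR 4.0.16 (filterByExpr), scaled by TMM and compared by the quasi-likelihood F test with genotype as the single term in R 4.3.3, with Benjamini-Hochberg adjustment over 12481 genes and a threshold of 0.05. A standard error is the log2 fold change over the square root of F. Sexes were compared in 1 fit of 4 groups. Log2 CPM used a prior count of 2. The fits were tested on simulated data. Alternatives were DESeq2 1.42.0 (size factors, Wald test), limma 3.58.1 (voom with quality weights), no filter, a minimum of 10 counts in each library, the cell cycle score or sex as a covariate, GC content and length corrected by splines with 5 degrees of freedom (known for 99.9% of genes), and each library left out. All 36 genes are named, with values per library for those called or not overlapping and for some shown for their role; of each other list, the called genes are named, at most 5. Fads3 was named after its value was seen. Figures were drawn with matplotlib 3.10.9. Proteins and metabolites were outside these data.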

Additional observations from a re-analysis of the deposited data

Results flagged for a closer look

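In 5 of the 88 sets of 8 libraries examined (44 genes in each genotype), the highest or lowest library lay apart from the rest by Dixon's criterion, which chance alone meets in about 1 of 20 sets. Acat2 stood at 12.9 CPM in *APOE4* replicate 35, with the next library at 10.0 CPM. Hmgcs1 stood at 49.1 CPM in *APOE3* replicate 25, with the next at 44.2 CPM. Scd2 stood at 106 CPM in *APOE3* replicate 26, with the next above it at 125.7 CPM, and its call held without that library. Elovl6 stood at 9.92 CPM in *APOE3* replicate 25 (next 8.24 CPM) and at 11.9 CPM in *APOE4* replicate 38 (next 9.17 CPM).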

How the results depend on the processing

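With the cell cycle score in the model, 0 genes were called across the table and 0 in the fatty acid branch. In that fit the log2 fold change changed sign for Mvk (-0.037), Mvd (-0.094), Idi1 (-0.093), Fdft1 (-0.13), Sqle (-0.072), Lss (-0.072), Sc5d (0.0064), Dhcr7 (-0.00019), Me1 (-0.028), Elovl1 (-0.019), Elovl5 (-0.0081), Fads1 (-0.023), Fads2 (-0.060) and Soat1 (-0.0054). With GC content and length corrected it did so for Hmgcs1 (-0.024), Msmo1 (-0.00097), Nsdhl (-0.0012) and Scap (0.025), and with limma's voom for Srebf2 (-0.0019). The cause was not tested. Under the 7 alternatives other than that covariate and leaving out libraries, the table held 1290 to 1958 calls and the fatty acid branch 4 to 6.

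With each library left out, the table held 846 to 2127 calls, the fatty acid branch 3 to 6, the sterol branch 0 to 1 and the regulators 0. The table held 853 and 952 calls without *APOE3* replicates 30 and 33, and 846 without *APOE4* replicate 41. The fatty acid branch held 3 without *APOE3* replicate 26, 28, 30 or 33 or *APOE4* replicate 35 or 41. The single sterol call was Acat2, higher, without *APOE3* replicate 25, Tm7sf2, lower, without *APOE4* replicate 38, or Ebp, higher, without *APOE4* replicate 43. Log2 fold changes ran from -0.013 to 0.048 for Hmgcs1, from -0.0064 to 0.096 for Mvd and from -0.0013 to 0.023 for Srebf2. The call of Fads1 was lost also without the filter on low counts (adjusted p = 0.0614) and with sex as a covariate (0.0519). The lowest counts of a sterol enzyme, those of Idi1, were 29 to 61 per library, and its 95% interval ran from -0.23 to 0.40. No paired analysis was possible because no replicate number is shared between the genotypes.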
